A study of Homo sapiens with 6 samples.

Results

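The RAB GTPases are the largest branch of the small Ras-like GTPases. They were taken here as every gene symbol made of RAB, a number and at most a letter and a further digit, which left out effectors, regulators and readthrough symbols. The rule found 62 members among the 26485 symbols counted, and 51 of them had enough reads to be tested. RNA was sequenced from AF22, an established human line of neural stem cells, in 6 libraries. The 3 control libraries carried a control short hairpin RNA (shControl) and their genotype is labelled WT. The 3 knockdown libraries are labelled as a COMMD3/COMMD3-BMI1 knockdown, with no description of the reagent. Both groups come from this 1 line, and no label tells whether replicates were grown separately, so the p-values reflect library-to-library spread alone, which may be technical. The control libraries held 11579849, 8798045 and 7294687 counts (replicates 1, 2 and 3), and those of the knockdown 9421178, 8574066 and 9692967.

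A RAB protein works as a switch. It is active on a membrane when bound to GTP, where it recruits effectors that move, tether or fuse vesicles, and is drawn back into the cytosol by GDI when bound to GDP. Exchange factors (GEFs) turn it on, GTPase-activating proteins (GAPs) turn it off, and a prenyl anchor, added with the help of an escort protein, holds it on the membrane. COMMD3 belongs to Commander, a complex that returns membrane proteins from endosomes to the cell surface.

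The targeted gene was checked first. Levels are in CPM, read counts relative to library size after TMM scaling. COMMD3 stood at 31.7, 29.7 and 27.6 CPM in the control libraries and at 12.9, 11.3 and 10.5 in those of the knockdown, a log2 fold change of −1.37 (SE 0.0996, adjusted p = 2.34e-12). BMI1 was at 110.2 ± 2.41 CPM in control and 105 ± 1.79 in knockdown (SD, n = 3; adjusted p = 0.206), and the readthrough symbol COMMD3-BMI1 was listed at 0 in every library. How reads shared with COMMD3 or BMI1 were counted is unknown, so this 0 does not show that the readthrough was absent. Its knockdown could not be assessed. Neural stem cell markers were present, with SOX2 at 288 ± 6.43 CPM in control, while HES5 was at 0 throughout. Of 16 tested stem cell markers, 1 was higher and 7 were lower in the knockdown (50%, beside 33.3% of all tested genes). Among neuron markers the summed level ran from 1078 to 1129 CPM in control and from 964 to 1012 in knockdown, with STMN2, ELAVL4, NEUROD1 and NEUROD2 at 0. Glial markers summed to between 528 and 542 CPM against between 469 and 478, with GFAP and SOX10 at 0. Of 8 tested glial markers, 0 were higher and 4 lower (50%, beside the same 33.3%). All 29 tested genes of an interferon response list were higher in the knockdown, where they summed to between 3170 and 3734 CPM against between 344 and 352. The part of these marker changes in the RAB results was not tested. In bulk RNA, fewer cells of a type and less RNA per cell cannot be told apart.

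RAB transcripts took up nearly the same share of the RNA in both groups. Summed over the family they reached 4077, 4102 and 4117 CPM in the control libraries and 4182, 4149 and 4144 in the knockdown libraries. The tested members spanned control means from 1.53 CPM (RAB27B) to 305 CPM (RAB31). Dividing by the length of the annotated exons, in kilobases (kb), allows genes to be compared with each other. On that scale the late endosomal RAB7A and the early secretory RAB1B led, at 92.0 ± 3.17 and 91.6 ± 4.43 CPM per kb in control, and did not differ beyond their spread. They were followed by RAB1A at 66.8 ± 1.68, and then by RAB10 at 58.6 ± 1.32, RAB5C at 55.9 ± 3.33 and RAB31 at 54.6 ± 2.24, neighbours whose ranges of 1 SD overlapped. RAB11B at 44.3 ± 0.859, RAB14 at 42.0 ± 1.08, RAB6A at 39.2 ± 0.653 and RAB34 at 37.7 ± 1.23 CPM per kb completed the 10 highest. These 10 genes, which serve the secretory, endocytic and recycling routes of most cells, made up 53.7% ± 1.04 of the family per kb in control and 53.5% ± 0.268 in knockdown. Among them, RAB1B shares 42.6% and RAB1A 22.9% of exon bases with genes on the other strand. The strand setting behind the counts is unknown. Of the 62 members, 11 share 20% or more of exon bases on either strand, so their levels may be affected. At the other end stood RAB27B at 0.206 ± 0.0324, RAB3B at 0.287 ± 0.0552 and RAB3C at 0.586 ± 0.0874 CPM per kb in control. All are RABs of regulated secretion. In control the range of 1 SD of RAB3C overlapped that of RAB43, a Golgi RAB at 0.678 ± 0.152 CPM per kb. In CPM without lengths, RAB3C at 5.66 ± 0.844 was above RAB43 at 3.38 ± 0.76.

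**Figure D1:**
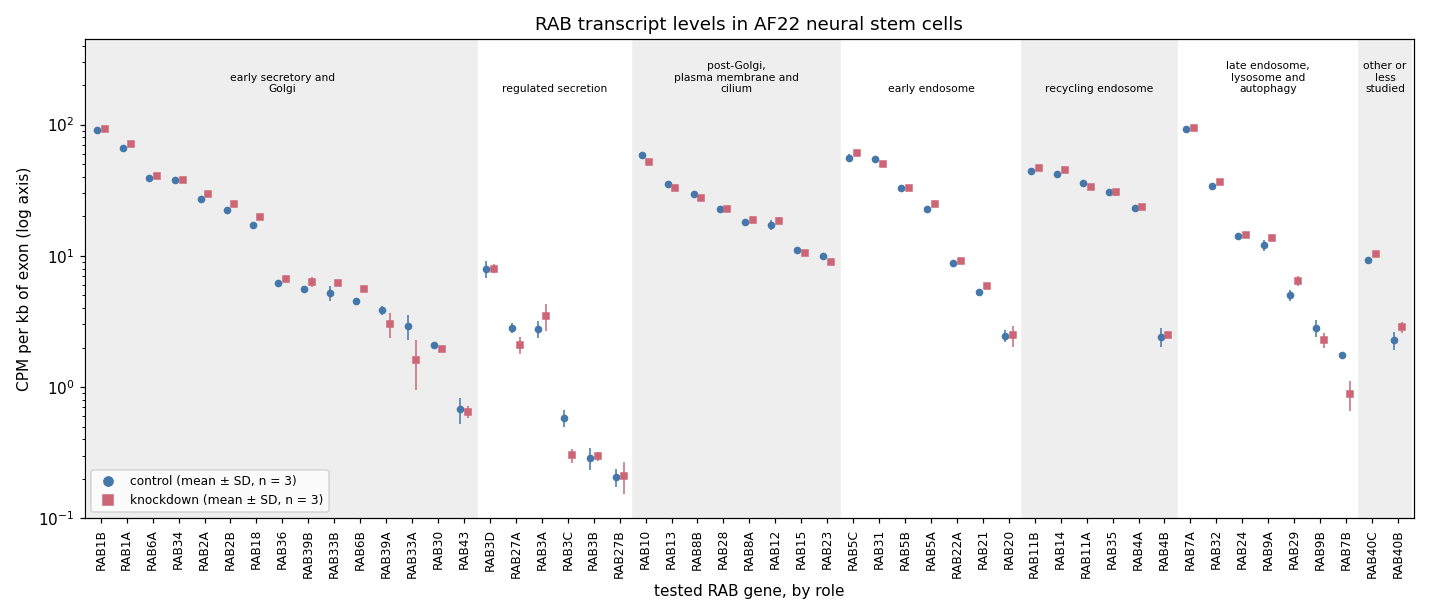
Level of each tested RAB gene in CPM per kb of exon (vertical log axis) by role, with points at the mean of 3 libraries and bars of 1 SD. RAB7A and RAB1B are highest, at 92.0 and 91.6 CPM per kb in control. The regulated secretion genes RAB27B, RAB3B and RAB3C have the lowest means, and the bars of RAB3C and RAB43 overlap in control.

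In the knockdown 19 of the 51 tested members changed (adjusted p under 0.05), 10 of them higher and 9 lower. That is 37.3% of the family, beside 33.3% of all 13632 tested genes, so the share was near the background; over all genes 15.3% were higher and 18.1% lower. The changes were mostly small. Among the 19, the fold ran from 1.08 to 1.96, 12 changed by less than 1.2-fold and 3 by 1.5-fold or more. The 3 were RAB7B, RAB3C and RAB33A, which fell and which all had fewer than 7 CPM in control. The median log2 fold change of the family was 0.04, against 0.00 over all genes, with 33 members above 0 and 18 below. The libraries of the groups did not overlap for 27 of the 51 members, against 44.3% of all tested genes, and for 17 of the 19 that passed; RAB33A and RAB40B were the exceptions. With 3 libraries against 3, an exact two-sided permutation test of a single gene cannot go below p = 0.1.

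**Figure D2:**
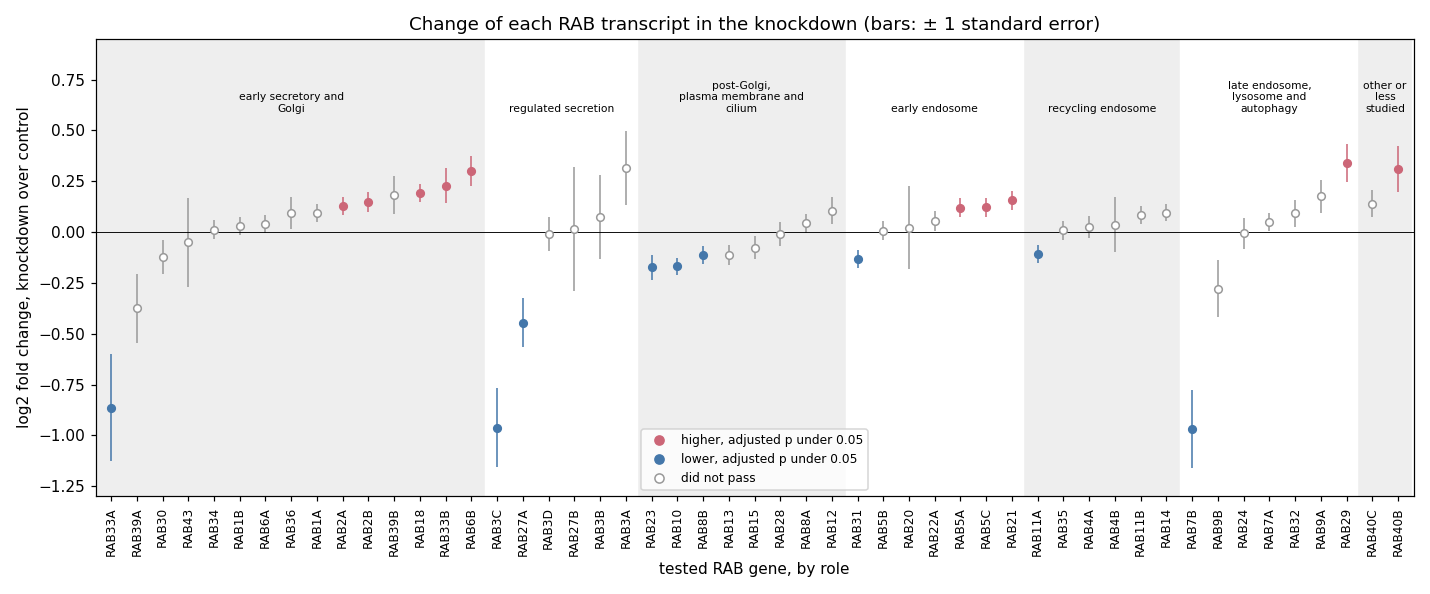
Log2 fold change of knockdown over control for each tested RAB gene, grouped by role, with bars of 1 standard error. Filled red and blue points passed the edgeR test as higher or lower, and open points did not; RAB7B, RAB3C and RAB33A lie lowest, at −0.97, −0.96 and −0.86.

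Of the 19 members, 7 passed in every one of the 16 alternative analyses run at the same threshold, which varied the scaling, filter, test and libraries, and they are RAB7B, RAB3C, RAB27A and RAB10, which fell, and RAB18, RAB6B and RAB29, which rose. By DESeq2, which called 20.5% of the genes it tested, 8 of the 51 members passed, 3 higher and 5 lower, all in the same direction as in edgeR. Scaling by library size alone gave 12 higher and 6 lower in place of 10 and 9, and removing each library's trend on length and GC content gave 7 higher and 11 lower. The balance of higher and lower members therefore moved with the scaling. Without control replicate 1, 12 members passed, 4 of them lower. Without knockdown replicate 1, 10 passed, 4 of them higher, and without knockdown replicate 2 the number lower was 5.

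**Figure D3:**
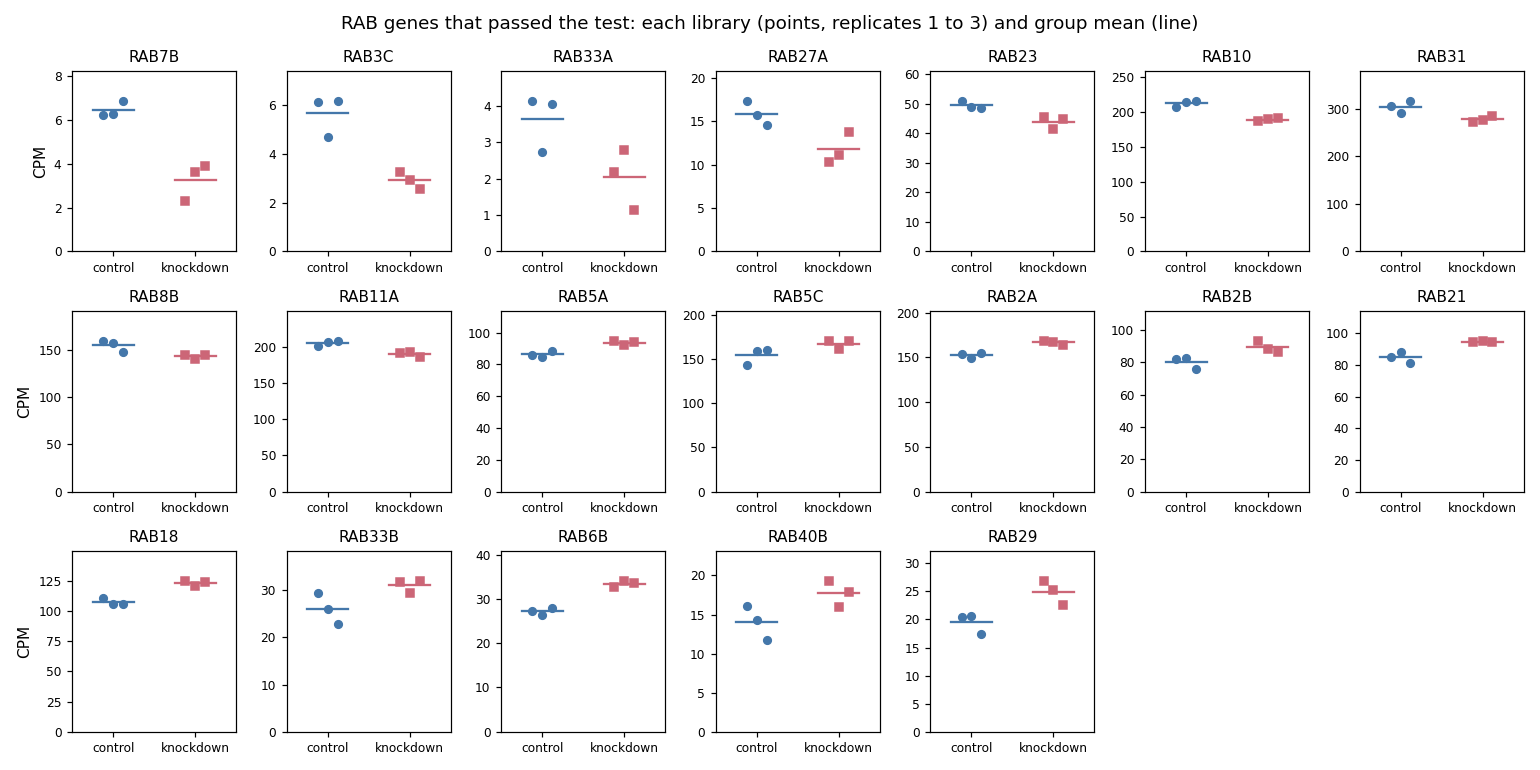
CPM in each library (points, horizontal line at the mean of 3, axes from 0) of the 19 RAB genes that passed the test. Groups are separate for all but RAB33A and RAB40B, and most differences are small beside the level itself.

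Some 3′ UTRs of these genes hold the 7-base word TCATCCA, which an earlier look at these same counts had singled out as more frequent among genes that fell. It is shown here as a description, without a test, because it was chosen from these data. In the longest annotated 3′ UTR of each gene (GENCODE v29, GRCh38), read on the transcript strand, 8 of the 51 tested members (15.7%) hold it, against 1447 of 12057 tested genes (12%). Of those 8, RAB10, RAB11A and RAB31 fell, RAB6B rose, and RAB30, RAB36, RAB3D and RAB4A did not pass. That is 50% called, near the 47.6% of all tested genes with the word, of which 560 fell and 129 rose. The sites of the members that passed are printed from 5′ to 3′, with the word in capitals, so that their flanks can be compared.
RAB10 (chr2:26135589-26135617, plus strand): caggagacataTCATCCAaacataaacca
RAB11A (chr15:65887985-65888013, plus strand): gctttataaaaTCATCCActtgtcccgaa
RAB31 (chr18:9861174-9861202, plus strand): gtaacctttccTCATCCAgttttccctga
RAB6B (chr3:133824865-133824893, minus strand): gtttccattttTCATCCAttgctgccctg
RAB4A did not pass although its 3′ UTR holds the word at 2 places, and its level was 76.3 ± 3.95 CPM in control and 78.2 ± 3.39 in knockdown. The median log2 fold change was −0.06 for the 8 members with the word and 0.04 for the other 43, beside −0.10 for all genes with it and 0.02 for all genes without it. Of the 43 members without the word, 15 passed (34.9%, beside 33.3% of all genes without it), 9 higher and 6 lower. The 15 include the 3 largest falls. A match of these letters does not show a site of action.

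Each member was placed in a single role class, assigned from general knowledge, although several RABs act at different compartments. The RABs of the early secretory pathway and the Golgi carry cargo from the endoplasmic reticulum through the Golgi and back. Of 15 tested, 5 rose and 1 fell, which is 40% beside 33.3% of all genes; DESeq2 called 2 higher and 0 lower. Their median log2 fold change was 0.09, and their share of the family per kb went from 30.7% ± 0.277 to 31.5% ± 0.343. RAB18, which acts at the endoplasmic reticulum and on lipid droplets (chromosome 10, 27504174 to 27542237, plus strand), stood at 111, 106 and 106 CPM in control and 125, 120.5 and 124 in knockdown. All 3 knockdown libraries were above all 3 control libraries, a log2 fold change of 0.19 (SE 0.0446, adjusted p = 0.00115). RAB6B, the form of the Golgi regulator RAB6 that is enriched in brain (chromosome 3, 133824239 to 133895836, minus strand), was at 27.4, 26.3 and 27.9 CPM in control and 32.7, 34.0 and 33.6 in knockdown. Here too the groups were well apart, with a log2 fold change of 0.30 (SE 0.0742, adjusted p = 0.00226). Its ubiquitous paralog RAB6A was at 192 ± 3.2 CPM in control and 198 ± 2.59 in knockdown and did not pass (log2 fold change 0.04, adjusted p = 0.506); whether the paralogs differed in response was not tested.

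RAB2A and RAB2B, which act between the endoplasmic reticulum and the Golgi, rose by similar small amounts. RAB2A read 154, 149 and 154 CPM in control against 168, 167 and 164 in knockdown (log2 fold change 0.13, SE 0.0427, adjusted p = 0.0202). RAB2B read 82.2, 82.8 and 75.8 CPM against 93.2, 88.5 and 86.4 (log2 fold change 0.15, SE 0.05, adjusted p = 0.0214). Neither pair of groups overlapped, but both calls were fragile. RAB2A did not pass by DESeq2 (adjusted p = 0.0649) or without control replicate 2 (0.0869), knockdown replicate 1 (0.0601) or knockdown replicate 2 (0.0721). RAB2B did not pass by DESeq2 (0.11), with the length and GC trend removed (0.0936), or without control replicate 3 (0.0958) or knockdown replicate 1 (0.108).

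The RAB33 paralogs, Golgi RABs of which RAB33B also binds the autophagy protein ATG16L1, went in opposite directions. RAB33A (chromosome X, 130171649 to 130184870, plus strand) was at 4.14, 2.74 and 4.06 CPM in control and 2.2, 2.79 and 1.13 in knockdown. Control replicate 2 fell just below knockdown replicate 2, so the groups overlapped; the log2 fold change was −0.86 (SE 0.263, adjusted p = 0.0115). Without control replicate 1 the adjusted p was 0.0768, without knockdown replicate 3 it was 0.101 with a log2 fold change of −0.56, and by DESeq2 it was 0.0904. RAB33B was at 29.4, 25.9 and 22.8 CPM in control and 31.6, 29.4 and 31.9 in knockdown, where the highest control and the lowest knockdown library were almost level (log2 fold change 0.23, SE 0.0848, adjusted p = 0.0372). That call was lost by DESeq2 (0.137) and without control replicate 2 (0.0894), control replicate 3 (0.165), knockdown replicate 1 (0.0849) or knockdown replicate 3 (0.0875). RAB33B also shares 13.8% of its exon bases with a gene on the other strand, and the strand setting behind the counts is unknown here.

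The other 9 members placed in the early secretory and Golgi class did not pass. RAB1A and RAB1B, which are needed for transport from the endoplasmic reticulum to the Golgi, had log2 fold changes of 0.09 (adjusted p = 0.0976) and 0.03 (0.651). RAB1A passed when libraries were scaled by size alone (0.0249), with replicate number as a block (0.0477) and without knockdown replicate 3 (0.0339). RAB39A, at 7.03 ± 0.509 CPM in control and 5.49 ± 1.2 in knockdown, had the largest value among those that did not pass, −0.38 (SE 0.168, adjusted p = 0.0845), with no overlap between groups, and passed with the length and GC trend removed (0.0379). RAB39B, whose loss causes an X-linked intellectual disability, had a log2 fold change of 0.18 (adjusted p = 0.131). RAB30, RAB34, RAB36 and RAB43 lay between −0.12 and 0.09.

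The RABs of regulated secretion release stored vesicles, among them synaptic vesicles. Of 6 tested, 2 fell (33.3%, the share called over all genes) and none rose by edgeR, with 0 higher at an unadjusted p under 0.05 and 0 by DESeq2, and the median log2 fold change was 0.00. RAB3C, a synaptic vesicle RAB (chromosome 5, 58582221 to 58859394, plus strand), stood at 6.13, 4.69 and 6.16 CPM in control and at 3.25, 2.91 and 2.57 in knockdown. Every control library was above every knockdown library, and the log2 fold change was −0.96 (SE 0.196, adjusted p = 0.000292). RAB27A, which docks secretory lysosomes, melanosomes and exosome-bearing endosomes at the plasma membrane (chromosome 15, 55202966 to 55319113, minus strand), was at 17.4, 15.8 and 14.6 CPM in control and 10.4, 11.2 and 13.8 in knockdown. Its groups did not overlap either, although knockdown replicate 3 came close to control replicate 3 (log2 fold change −0.45, SE 0.119, adjusted p = 0.00433).

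The remaining secretory members gave no call. RAB3A, the main RAB of synaptic vesicles, was at 5.87, 4.91 and 4.34 CPM in control and 7.12, 4.66 and 7.3 in knockdown, with knockdown replicate 2 inside the control range (log2 fold change 0.32, SE 0.181, adjusted p = 0.186). Without that library RAB3A passed (0.0477). RAB3D, the most abundant of the group, was at 35.2 ± 5.19 CPM in control and 35.4 ± 2.66 in knockdown, and RAB3B and RAB27B, at 3.69 ± 0.708 and 1.53 ± 0.241 CPM in control, had standard errors of 0.205 and 0.305, so small changes were not detectable at this depth. Of the 11 tested neuron markers, 4 fell (NEFM, ELAVL3, NEFL and SYP) and 1 rose (GAP43), which is 45.5% beside 33.3% of all genes. Log2 fold changes of the 11 ran from −0.93 for SYP to 0.42 for GAP43, with a median of −0.11. Whether the RAB3C value moved with neuron-like cells was not tested.

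The next class was assigned to traffic from the Golgi to the plasma membrane and the primary cilium, though its members may also act elsewhere. Of 8 tested, 3 fell (RAB10, RAB8B and RAB23) and none rose by edgeR, which is 37.5% beside 33.3% of all genes, with 0 higher at an unadjusted p under 0.05 and 0 by DESeq2, which called 1 of the 3 lower. Of the 8, 2 had values above 0; the median log2 fold change was −0.10, and their share of the family per kb went from 18.7% ± 0.262 to 17.4% ± 0.169. RAB10, which delivers GLUT4 and other cargo to the surface and is a substrate of the kinase LRRK2 (chromosome 2, 26034107 to 26137454, plus strand), was at 207, 215 and 216 CPM in control and 186, 189.9 and 191 in knockdown. The groups were clearly separate, with a log2 fold change of −0.17 (SE 0.0424, adjusted p = 0.0026). Per kb, RAB10 had the highest control mean of the members that changed, though its range of 1 SD overlapped that of RAB5C. In knockdown RAB5C was higher, at 60.5 ± 1.8 CPM per kb against 52.1 ± 0.618 for RAB10.

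RAB8B, a close relative of the ciliary RAB8A, was at 159, 157 and 148 CPM in control and 145, 140.1 and 145 in knockdown (log2 fold change −0.11, SE 0.0442, adjusted p = 0.0447). The groups did not overlap, yet the call held in few settings: the adjusted p was 0.0514 with RLE scaling, 0.0619 with upper-quartile and 0.0925 with library-size scaling, 0.0625 without a filter, 0.0529 with readthrough counts summed, 0.146 by DESeq2, 0.173 without control replicate 1, 0.137 without control replicate 2, 0.0849 without knockdown replicate 1, 0.174 without knockdown replicate 2 and 0.0612 without knockdown replicate 3. RAB23, a negative regulator of Hedgehog signalling, was at 50.9, 48.9 and 48.5 CPM in control and 45.4, 41.4 and 44.7 in knockdown; its log2 fold change was −0.17 (SE 0.0615, adjusted p = 0.0281). That call was lost by DESeq2 (0.171), with library size alone (0.0648) and without control replicate 1 (0.122), control replicate 2 (0.0505) or knockdown replicate 2 (0.151). RAB23 shares 57.7% of its exon bases with BAG2 on the other strand, and BAG2 itself was at 22.9 CPM in control and 22 in knockdown. RAB8A, RAB12, RAB13, RAB15 and RAB28 did not pass, with log2 fold changes from −0.11 to 0.11. RAB13, a junctional RAB, was the nearest to passing (−0.11, adjusted p = 0.0711). It passed with the length and GC trend removed (0.00903) and with replicate number as a block (0.0475).

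Early endosomal RABs receive cargo from the plasma membrane. Of 7 tested, 3 rose and 1 fell (57.1%, beside 33.3% of all genes), by DESeq2 0 and 1, and the median log2 fold change was 0.05. RAB21, which guides integrin traffic, was at 84.8, 88.3 and 81.1 CPM in control and 94.3, 95.1 and 94.5 in knockdown. The knockdown libraries lay close together and above every control library (log2 fold change 0.16, SE 0.0474, adjusted p = 0.0111), and DESeq2 gave an adjusted p of 0.0758. RAB31, an endosomal RAB related to RAB22A and the most abundant member in CPM, was at 306, 292 and 317 CPM in control and 273, 277 and 286 in knockdown. It fell without overlap (log2 fold change −0.13, SE 0.044, adjusted p = 0.0216), and the call was lost without control replicate 1 (0.0569), control replicate 3 (0.0715), knockdown replicate 1 (0.111) or knockdown replicate 2 (0.0809).

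RAB5, the regulator of early endosome fusion, is encoded by 3 paralogs. RAB5A read 86.1, 84.7 and 88.3 CPM in control against 94.7, 92.2 and 94.0 in knockdown (log2 fold change 0.12, SE 0.0464, adjusted p = 0.0478). RAB5C read 144, 159 and 160.1 CPM against 170.3, 161 and 169.8 (log2 fold change 0.12, SE 0.0469, adjusted p = 0.0433). Neither overlapped between groups, though the lowest knockdown library of RAB5C was barely above its highest control library. RAB5B was at 216 ± 7.54 CPM in control and 217 ± 8.44 in knockdown and did not pass (log2 fold change 0.01, adjusted p = 0.917). The RAB5A call was lost by DESeq2 (0.205), without a filter (0.0781), by voom (0.0502), with the length and GC trend removed (log2 fold change 0.07, adjusted p = 0.231) and on leaving out control replicate 1 (0.105) or 2 (0.127) or knockdown replicate 1 (0.115), 2 (0.081) or 3 (0.0743). The RAB5C call was lost by DESeq2 (0.132), with the length and GC trend removed (0.123) and without control replicate 1 (log2 fold change 0.07, adjusted p = 0.322), knockdown replicate 1 (0.114) or knockdown replicate 3 (0.0898). RAB5C shares 28.8% of its exon bases with another annotated gene on the same strand. RAB20 and RAB22A did not pass (log2 fold changes 0.02 and 0.05).

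Recycling RABs return internalised proteins to the surface, the step closest to the known work of Commander. Of 6 tested, 1 fell (16.7%, beside 33.3% of all genes) and none rose, with 1 higher at an unadjusted p under 0.05 and 0 by DESeq2, and their share of the family per kb was 16.4% in both groups. RAB11A, the central RAB of the recycling endosome, was at 201, 207 and 208 CPM in control and 192, 193 and 186 in knockdown. All control libraries were above all knockdown libraries, but the log2 fold change was −0.11 (SE 0.0425) with an adjusted p of 0.0488, just under the threshold. It did not pass by DESeq2 (0.117), with RLE (0.0591), upper-quartile (0.0631) or library-size scaling (0.0864), without a filter (0.07) or with readthrough counts summed (0.0592), nor without any 1 of the 6 libraries, control replicates 1 to 3 and knockdown replicates 1 to 3 each left out in turn (0.0519 to 0.162). RAB11B did not pass, with a log2 fold change of 0.08 (SE 0.0447, adjusted p = 0.149). RAB4A, RAB4B, RAB14 and RAB35, which act in fast recycling and at the endosome to Golgi step, had values of 0.03, 0.04, 0.10 and 0.01. Of these, RAB14 (adjusted p = 0.0891) passed when scaled by library size alone (0.025) or upper quartile (0.049). It also passed with replicate number as a block (0.047) and without control replicate 3 (0.0495).

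RABs of late endosomes, lysosomes and autophagy gave 1 rise and 1 fall among 7 tested (28.6%, beside 33.3% of all genes), and these were among the larger changes of the family. RAB7B, which acts between late endosomes and the Golgi (chromosome 1, 205976740 to 206003461, minus strand), was at 6.22, 6.28 and 6.87 CPM in control and 2.3, 3.61 and 3.91 in knockdown. The groups were far apart, with a log2 fold change of −0.97 (SE 0.191, adjusted p = 0.000195), the smallest p of the family. RAB29, which recruits LRRK2 to membranes and lies in a Parkinson's disease risk locus, lies on the same strand as RAB7B (chromosome 1, 205767986 to 205775460), 201279 bases away. It went in the opposite direction: 20.4, 20.7 and 17.4 CPM in control and 26.8, 25.3 and 22.5 in knockdown. Again no library of 1 group reached the other (log2 fold change 0.34, SE 0.0938, adjusted p = 0.00584). RAB7A, the main RAB of late endosome to lysosome fusion, was at 249.9 ± 8.62 CPM in control and 258 ± 3.9 in knockdown and did not pass (log2 fold change 0.05, SE 0.0432, adjusted p = 0.416).

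The late endosomal RAB9A and RAB9B, which return receptors to the Golgi, had log2 fold changes of 0.18 (SE 0.0824, adjusted p = 0.102) and −0.28 (SE 0.14, adjusted p = 0.125), and neither passed. RAB9A passed without control replicate 2 (0.045). RAB32, a RAB of lysosome-related organelles, had a value of 0.09 and RAB24, linked to autophagy, one of −0.01. In the remaining class, RAB40B and RAB40C carry a SOCS box that joins them to ubiquitin ligases. RAB40B was at 16.1, 14.3 and 11.8 CPM in control and 19.3, 15.9 and 17.9 in knockdown, with knockdown replicate 2 just below control replicate 1 (log2 fold change 0.31, SE 0.113, adjusted p = 0.0341). Its call was lost by DESeq2 (0.129) and without control replicate 2 (0.068), control replicate 3 (0.144), knockdown replicate 1 (0.147) or knockdown replicate 3 (0.0618). RAB40C had a log2 fold change of 0.14 (adjusted p = 0.108).

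The errors were smallest for abundant members. The 15 members that did not pass and had a control mean of 50 CPM or more had log2 fold changes of at most 0.11 in size, with standard errors of at most 0.059. They include RAB1A, RAB5B, RAB7A and RAB35. On simulated counts with the depths of these libraries the test recovered 22% of genes changed 1.1-fold and 62% of genes changed 1.2-fold. That simulation gave 143 calls, against 4545 in the real comparison, which made its adjusted threshold stricter. It also drew genes of all levels, so these shares do not give the power for members at 50 CPM or more. Small changes may still have been missed.

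Within subfamilies the balance of paralogs was compared per kb. RAB7B was 1.87% ± 0.109 of the RAB7 pair in control and 0.926% ± 0.237 in knockdown, and RAB6B was 10.3% ± 0.401 of the RAB6 pair against 12.1% ± 0.339. RAB11A went from 44.9% ± 0.318 to 41.7% ± 0.891 of the RAB11 pair, and RAB8A from 38% ± 1.02 to 40.5% ± 1.15 of the RAB8 pair. In each of these subfamilies the 3 control libraries lay apart from the 3 knockdown libraries, and the same held for the RAB27, RAB33 and RAB39 pairs. The levels of 44.3% of all tested genes were likewise apart, and no such background was computed for shares. The 2 shares of a pair are complements, so each pair is 1 comparison. RAB27B had only 9 to 20 counts per library. Whether paralogs differed in response was not tested. In the RAB3 subfamily RAB3D held 68.5% in control and 66.3% in knockdown, while the share of RAB3C went without overlap from 5.13% ± 1.25 to 2.49% ± 0.253. For the RAB1, RAB2, RAB4, RAB5, RAB9 and RAB40 subfamilies the shares overlapped between groups. These shares depend on the exon lengths used, and 28 of the 31 moved by more than 1 SD when counts were taken without lengths.

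**Figure D4:**
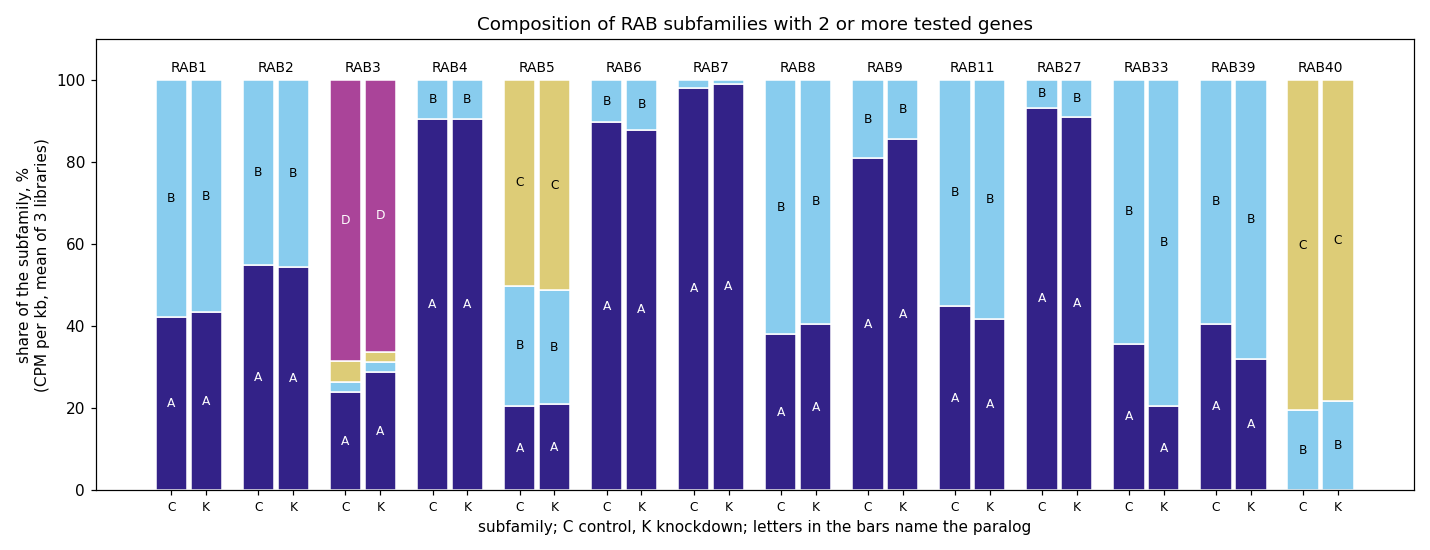
Share of each paralog in its RAB subfamily, in percent of CPM per kb, as the mean of 3 control and of 3 knockdown libraries. The thinnest slices, RAB3B, RAB3C and RAB7B, carry no letter; RAB7B goes from 1.87% to 0.926% of its pair and RAB11A from 44.9% to 41.7%.

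A few members share exons with readthrough transcripts, so their reads may be split between symbols. RAB43 shares 79.3% of its exon bases with the symbol ISY1-RAB43, which held more reads (41.6 ± 2.5 CPM in control and 40.0 ± 1.06 in knockdown) than RAB43 itself (3.38 ± 0.76 and 3.25 ± 0.345). RAB4B shares 36.8% of its exon bases with readthrough symbols, and RAB4B-EGLN2 rose from 12.3 ± 1.12 to 16.6 ± 1.16 CPM (log2 fold change 0.45, SE 0.111, adjusted p = 0.00211) while RAB4B alone was at 9.5 ± 1.62 and 9.86 ± 0.367 CPM. In an alternative chosen after seeing the data, the readthrough counts were added. The sum of RAB4B and RAB4B-EGLN2 was at 21.7 ± 1.03 CPM in control and 26.5 ± 0.793 in knockdown and passed (log2 fold change 0.29, SE 0.0838, adjusted p = 0.00876). The readthrough symbol can also hold reads from EGLN2 exons, so the rise of the sum cannot be assigned to RAB4B. The sum of RAB43 and ISY1-RAB43 did not pass (−0.05, adjusted p = 0.57).

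The 11 members that were not tested had few reads. Over the 3 libraries of a group, RAB37, found on secretory granules, had 19 counts in control and 16 in knockdown, and RAB42 had 15 and 17. RAB26 had 1 and 11 and passed when no filter was applied (adjusted p = 0.0378), RAB38, a melanosomal partner of RAB32, had 0 and 6, and RAB19 had 2 and 8. RAB17, RAB25, RAB40A, RAB41, RAB44 and RAB6C had 10 or fewer in each group, and RAB41 had none. RAB6C and RAB40A have near-identical copies in the genome, so their counts are uncertain.

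Promoters of the members (250 bases before to 50 after the start site, RefSeq on GRCh38.p14, found for 49 of the 62) were searched on both strands for motifs of pathways that moved or that act on lysosomal genes. The core of the interferon-stimulated response element (GAAA, any 2 bases, GAAA) was in 1195 of 27305 symbols (4.38%) and in 2 members, RAB19, not tested, and RAB27A, which fell. The E-box CACGTG, bound by factors such as TFEB, MITF and MYC, was in 2396 symbols (8.77%) and in 6 of the 49 members (12.2%). Of these, RAB21, RAB29 and RAB5A rose, RAB31 fell, and RAB24 and RAB4A did not pass. Of all tested genes 33.3% passed, 15.3% higher and 18.1% lower, and the share among all genes with an E-box was not computed. The longer lysosomal form, CACGTG with GT before it and AC after it, was in 115 symbols (0.421%) and in RAB5A alone among members. RAB5A passed in only 7 of the 16 alternative analyses. The windows of the members that passed are printed 5′ to 3′ with the motif in capitals, to show how the flanks of the E-boxes compare.
RAB21 (chr12:71754833-71754858, plus strand): caccggcgctCACGTGacccgaggtg
RAB29 (chr1:205775448-205775473, minus strand): ggcaaccctgCACGTGacgcttgcgg
RAB5A (chr3:19946966-19946991, plus strand): ctcgcagggtCACGTGacatcctgcc
RAB31 (chr18:9708231-9708256, plus strand): ggccggcggcCACGTGacccaccgcg
RAB27A, interferon motif (chr15:55319344-55319373, plus strand, opposite to the gene): ataaagctgcGAAAGAGAAAgtctaccttg
A match is a description of the letters and not a bound site.

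Genes for the proteins that load, switch and read RABs were compared in 5 lists. Over these, 155 were tested, and 24 were higher and 21 lower (29%, beside 33.3% of all genes), with a median log2 fold change of 0.03. This total counts each gene once, although DENND6A is in both the exchange factor and the effector list. Among the 9 tested genes of prenylation and membrane extraction, 3 fell (33.3%, as over all genes) and none rose by edgeR, with 3 higher at an unadjusted p under 0.05 and 0 by DESeq2. The 3 included both RAB escort proteins, which present new RABs to the prenylating enzyme. CHM was at 62.5, 58 and 54.9 CPM in control and 45.5, 44.0 and 46.3 in knockdown (log2 fold change −0.38, adjusted p = 1.22e-05). CHML was at 80.7, 66.6 and 75.5 CPM and at 59.4, 57.3 and 59.5 (log2 fold change −0.35, adjusted p = 3.88e-05). Both were lower in every knockdown library than in any control library. The third was PRAF2, a prenylated RAB acceptor family member (−0.21, adjusted p = 0.0201), which did not pass by DESeq2 (0.0873) or without control replicate 2 (0.0641) or 3 (log2 fold change −0.12, adjusted p = 0.185) or knockdown replicate 1 (0.0512) or 2 (0.0582). The transferase subunits RABGGTA and RABGGTB and the extraction factor GDI2 did not pass, with log2 fold changes of 0.16, 0.05 and 0.07.

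Of 49 tested genes of exchange factors, 5 rose and 4 fell (18.4%, beside 33.3% of all genes), and by DESeq2 4 and 2. HPS1, part of the exchange factor for RAB32 and RAB38, rose from 17.9 ± 0.235 to 24.4 ± 2.29 CPM (log2 fold change 0.45, adjusted p = 0.000341), and DENND6B rose from 7.88 ± 0.984 to 12.3 ± 0.873 CPM (0.62, adjusted p = 0.000511). DENND6A (0.18) and TRAPPC5 of the TRAPP complexes (0.32) also rose, the latter not without control replicate 1 (adjusted p = 0.0512). ST5 (−0.22), DENND5B (−0.21), DENND4A (−0.28) and CCZ1 (−0.25) fell. CCZ1 forms the RAB7 exchange factor with MON1, and its near-identical copy CCZ1B makes its count uncertain; it did not pass by DESeq2 (0.113) or without knockdown replicate 2 (0.0549) or 3 (0.081). DENND4A did not pass by DESeq2 (0.0868) or without control replicate 2 (0.0659) or knockdown replicate 1 (0.0581).

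Among 35 tested genes listed as GAPs, 6 rose and 5 fell (31.4%, beside 33.3% of all genes), and by DESeq2 4 and 5. Whether each of them acts as a RAB GAP was not checked. USP6NL, a GAP for RAB5, was at 115 ± 4.77 CPM in control and 90 ± 0.362 in knockdown (log2 fold change −0.35, adjusted p = 5.09e-07). TBC1D5, a RAB7 GAP bound by retromer, was at 132 ± 1.55 and 106 ± 1.73 CPM (−0.32, adjusted p = 1.25e-06). TBC1D16 (−0.23) and TBC1D4, which acts on RAB10 in insulin signalling (−0.33), fell as well, and TBC1D17 (0.36), TBC1D9 (0.26), RABGAP1L (0.29) and TBC1D24 (0.26) rose.

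Of 57 tested effectors, 14 rose and 9 fell (40.4%, beside 33.3% of all genes), and by DESeq2 8 and 6. The 14 include DENND6A, which is also counted among the exchange factors. ERC1, which binds RAB6 and tethers vesicles at the cell cortex, was at 86.6, 83.8 and 89.3 CPM in control and 56.5, 60.4 and 63.8 in knockdown. It had the smallest adjusted p of these lists, 4.41e-09, with a log2 fold change of −0.52. EHBP1, an effector of RAB8 and RAB10 (−0.35), APPL2, an effector of RAB5 (−0.34), and RUSC2, which binds RAB1 (−0.28), fell too. The RAB11 effector RAB11FIP1 rose from 4.23 ± 0.17 to 7.61 ± 1.07 CPM (0.84, adjusted p = 0.000217), and the RAB1 effector GOLGA2 (0.28), the phosphatase OCRL (0.26) and the RAB4 effector RUFY1 (0.30) rose. Of the 7 tested RAB-like GTPases none passed by edgeR in either direction, with 0 at an unadjusted p under 0.05 and 0 by DESeq2. Of the 155 genes of the 5 lists, 12 hold TCATCCA in the 3′ UTR, of which 7 fell, 1 rose and 4 did not pass. Among the other 143, 14 fell and 23 rose. Over all tested genes, 560 of 1447 with the word fell and 129 rose, and 1702 of 10610 without it fell and 1828 rose. Since the word was chosen from these data, this is a description.

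**Figure D5:**
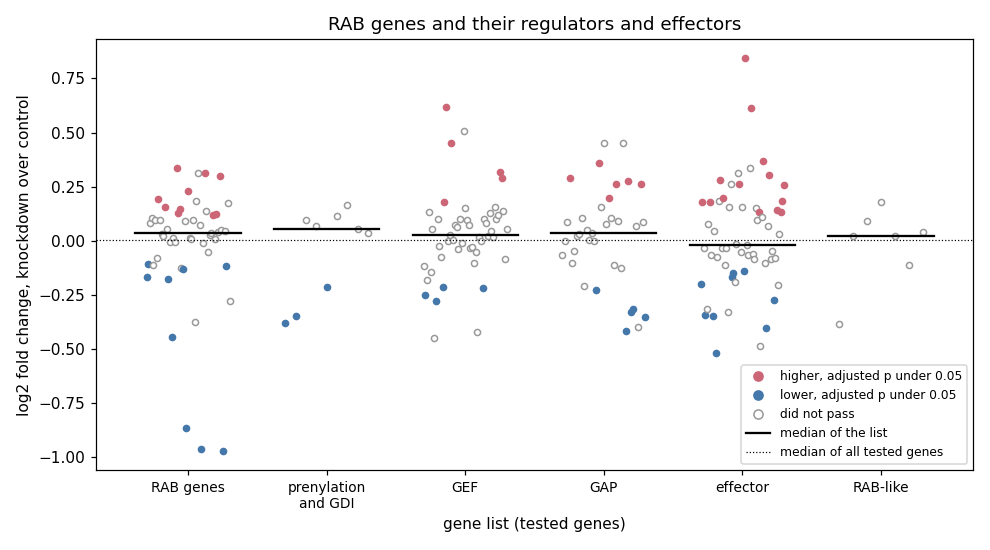
Log2 fold change of knockdown over control for the tested genes of the 5 RAB pathway lists and for the RAB members, with filled points for genes that passed. ERC1 is lowest among effectors at −0.52 and RAB11FIP1 highest at 0.84, and RAB-like GTPases hold no filled point.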

How the data were processed

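The 6 AF22 libraries were grouped by their titles. They were made from total RNA with a kit that keeps strand, per the labels' protocols. Trim Galore 0.6.6, STAR 2.7.10a, bedtools and hg38 appear in the submitters' processing notes. How reads were counted, with which strand setting and annotation, is not given in the sources used here. Each sample came with 1 file: the authors deposited a table of whole-number read counts per gene symbol for each library, not normalised.

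Of 26485 symbols, 13632 were kept by edgeR's filterByExpr (edgeR 4.0.16 under R 4.3.3). Counts were scaled by TMM and the groups compared with edgeR's quasi-likelihood test without covariates, with Benjamini-Hochberg adjustment over all tested genes and a threshold of 0.05. A standard error is the size of the log2 fold change divided by the square root of F. CPM use the TMM-adjusted library size and are means ± SD (n = 3). Per kb values divide by the union of GENCODE v29 exons, found for all 62 members. A count of 0 in a library allows up to 3 counts, or 0.259 to 0.42 CPM, for counting error only. Replicates of a group differed by more than sampling noise (chi-square per degree of freedom 1.23 to 1.99), so each library counted once.

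The members, role classes, lists, motifs and tests were chosen with earlier results of these data known. The text names COMMD3, COMMD3-BMI1, BMI1, every member that passed, the 10 highest per kb, all paralogs of a subfamily with a called member, members past 0.5 on the log2 scale that did not pass (there were none), and from each pathway list up to 4 called genes per direction with the smallest adjusted p; other genes named were chosen after their values were seen. Alternatives were scaling by library size, upper quartile or RLE, testing without a filter, 1 CPM or more in 3 libraries, DESeq2 1.42.0, voom of limma 3.58.1, the replicate number as a block, removal of each library's trend on length and GC content (by loess with a span of 0.5, for the 94.5% of genes with an annotated length), an adjusted p under 0.01, and leaving out each library. Summing readthrough counts and leaving out members with TCATCCA were added after seeing the data. Leaving out those members only counted the calls of the main fit again. Tested on simulated data, edgeR recovered 22%, 62%, 84% and 98% of genes changed 1.1-, 1.2-, 1.5- and 2-fold among 13632, with 10 false calls of 143. Sequence searches and figures used Python 3.11.15, pandas 2.3.3, NumPy 2.4.6 and Matplotlib 3.10.9.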

Additional observations from a re-analysis of the deposited data

How the results depend on the processing

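No member that passed changed sign in any of the 16 alternatives; 7 passed in all of them, 12 lost the call in 1 or more, and 7 others gained one. By DESeq2 3 members were higher and 5 lower (8 in all), and 15 pathway genes were higher. At an adjusted p under 0.01, 3 were higher and 4 lower (7 in all), and 15 pathway genes were higher. Leaving out 1 library at a time gave between 4 and 9 higher, between 4 and 7 lower and between 10 and 15 members in all, and between 17 and 22 pathway genes higher and between 16 and 23 lower. The other scalings (RLE, upper quartile, library size), the other filters, voom, trend removal and summed readthrough counts each gave between 17 and 19 members. Without a filter these were 16 of the 19 and RAB26. Of the 19, 15 do not hold TCATCCA, which is a count from the main fit and not a check of it. No scaling moved the median of all genes by over 0.1 on the log2 scale. Replicate numbers pair nothing that the labels name: the correlations of same-numbered libraries were 0.0792, 0.00548 and 0.0713. A fit with replicate number as a block gave 22 members, 12 higher and 10 lower, and 27 pathway genes were higher and 23 lower. Depth limits members under 10 CPM, whose standard errors run well above those of abundant members; causes of these shifts were not tested.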
